A study of Mus musculus with 15 samples.

Results

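Neurotrophins are secreted proteins that keep neurons alive and adjust the strength of their synapses. They are made as precursors that convertases cut, and they act through Trk receptor kinases, the low-affinity receptor p75NTR and its partner sortilin. Insulin-like growth factor 1 (IGF1) signals through its own receptor kinase into an overlapping cascade, and in the adult hippocampus these factors are known for their part in long-term potentiation, dendritic growth and adult neurogenesis. The RNA of 9 genes of this system was examined: the ligands Bdnf and Ntf3, their receptors Ntrk2 (TrkB) and Ntrk3 (TrkC), the p75NTR gene Ngfr, the sortilin gene Sort1, Vgf, a neuropeptide precursor known to be induced by neurotrophins, and Igf1 with its receptor Igf1r. They were matched by symbol among the 55401 genes counted, and all 9 were among the 19536 genes that passed a filter on low counts.

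Hippocampal RNA came from 15 aged female mice (18 to 20 months). The labels give the genotypes as Tg2576 +/+ and Tg2576 -/-. Tg2576 mice carry human APP with the Swedish mutation under a prion protein promoter, so the transgene is expressed in many cell types, and their transgene-negative littermates are called WT here. Mice received docosahexaenoic acid (DHA, an omega-3 fatty acid) in sesame oil at 450 mg/kg by daily gavage for 5 weeks, or sesame oil alone (vehicle), and per the study's methods had been through memory tests. Each group held 4 mice, except that of Tg2576 mice on DHA with 3.

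The libraries held between 17372864 and 46596489 assigned reads. Levels below are CPM (counts scaled to a common library size) after TMM scaling, and values divided by exon length (RPKM, the same per kilobase of exon) were used only where genes are compared with each other. Reads assigned to the mouse App gene measured 1702 ± 86.5 CPM in the WT mice and 2342 ± 221 CPM in the Tg2576 mice on vehicle (SD, n = 4 each). In the DHA groups they measured 1641 ± 64.3 (n = 4) and 2542 ± 251 (n = 3), with no overlap between genotypes. The part of reads from the human transgene in these App values was not tested. The dentate, CA1 and CA2/CA3 marker lists held no gene without reads in any group. The summed choroid plexus markers ran from 60.8 to 5811 CPM across mice and were at or above 3091 CPM in all 3 Tg2576 DHA mice, and the part of this tissue in the values below was not tested.

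The Bdnf gene lies on chr2:109674700-109727007 (GRCm38, plus strand) and has several alternative first exons, each with its own promoter, joined to a shared coding exon. The counts sum over them. RefSeq gives 7 promoter windows for Bdnf (250 bases before to 50 after a start site). The third of them is printed here, without the transcribed bases, because it was the only window of the 13 found for these genes that held a motif of the cyclic AMP response element, the site through which the activity-dependent factor CREB acts.
Bdnf, chr2:109692186-109692435, plus strand: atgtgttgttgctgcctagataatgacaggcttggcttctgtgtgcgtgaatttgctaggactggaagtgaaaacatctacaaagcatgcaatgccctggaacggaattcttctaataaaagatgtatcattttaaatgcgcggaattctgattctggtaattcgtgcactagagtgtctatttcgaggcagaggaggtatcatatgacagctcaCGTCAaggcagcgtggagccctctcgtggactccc
The capitals mark the motif core TGACG, which is read on the minus strand and sits 35 to 31 bases before the start site. Searched on both strands, that core was present in 20.8% of the 32851 full-length windows of all genes and in 1 of the 13 windows here. The full element TGACGTCA (1.79% of all windows, its cores counted also above), the EGR site GCGGGGGCG (2.91%) and the TATA box TATAAA (13.6%) were in 0 of the 13. The windows covered Bdnf, Ntf3, Ntrk2, Ngfr, Igf1 and Igf1r. Vgf, Sort1 and Ntrk3 were not searched.

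Per exon length, the 9 genes differed widely in level. In WT vehicle mice Sort1 had 110 ± 14 RPKM and Vgf 89.2 ± 7.29, and these overlapped. Ntrk2 followed with 28.8 ± 3.22 RPKM, below Vgf and above every other gene in all 4 mice. Ntrk3 (7.57 ± 1.36), Bdnf (6.65 ± 0.868), Igf1r (5.06 ± 0.629) and Ntf3 (4.51 ± 1.11) formed a row in which neighbours overlapped. Ngfr (1.04 ± 0.207) and Igf1 (0.540 ± 0.138) were lowest, and each was separated from the gene above it (SD, n = 4 throughout). Ntf3, Igf1 and Ngfr had few reads per mouse, with raw counts of 94 to 272, 71 to 292 and 42 to 145.

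**Figure D1:**
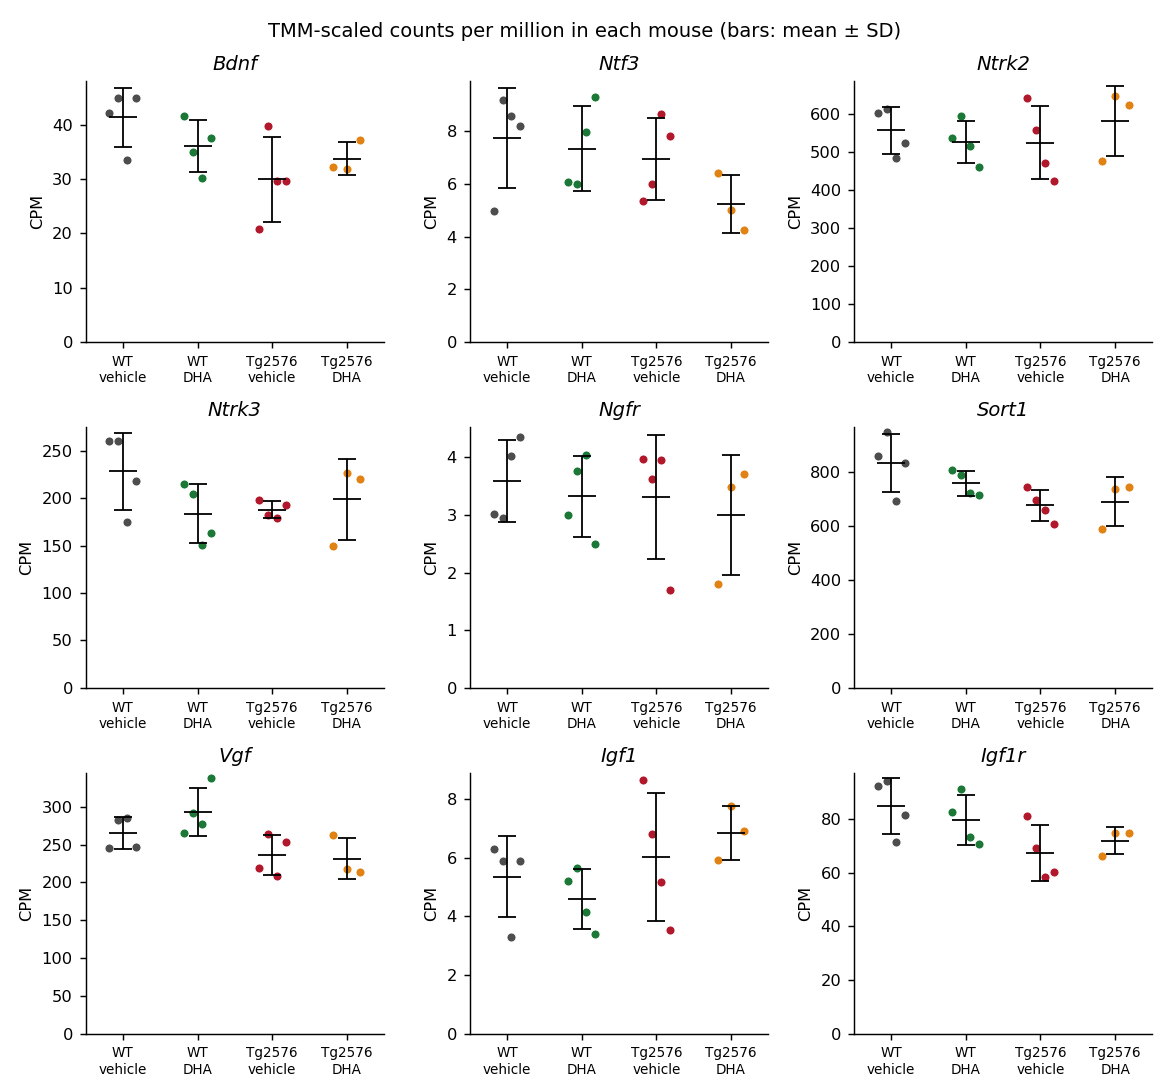
CPM of the 9 genes (y axis, from 0) in each of the 15 mice by group (x axis). Points are mice, horizontal bars are group means and whiskers are SD. Bdnf, Sort1 and Igf1r sat lower in Tg2576 vehicle than in WT vehicle mice with some overlap, and the Vgf and Igf1 points of the DHA groups separated by genotype.

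Without DHA, Bdnf and Sort1 RNA were lower in Tg2576 than in WT mice at the unadjusted threshold of p under 0.01, and Igf1r lay just outside it. These were 2 of the 9 genes, where 3.09% of all tested genes passed. Neither passed after Benjamini-Hochberg adjustment over all genes tested. Of the 9 genes, 8 had a lower mean in Tg2576 mice. Their median log2 difference was -0.17, against 0.00030 over all genes.

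Bdnf, the ligand of TrkB, was at 42.1, 44.9, 33.5 and 44.9 CPM in the 4 WT vehicle mice and at 20.8, 39.8, 29.7 and 29.7 CPM in the 4 Tg2576 vehicle mice. All but the third WT mouse were above every Tg2576 mouse, and the second Tg2576 mouse lay within the WT range. The log2 difference was -0.46 (95% interval -0.79 to -0.13), or 0.727 times the WT level, with an unadjusted p of 0.00874 and adjusted p = 0.312 in edgeR's quasi-likelihood test. The two-sided exact permutation test gave p = 0.0571. When each of the 15 mice was left out in turn, the difference stayed negative (-0.63 to -0.32) and passed the threshold in 4 of 15 fits, those without Tg2576 vehicle replicate 2 (unadjusted p of 0.000523), WT vehicle replicate 3, WT DHA replicate 3 or Tg2576 DHA replicate 3. It did not pass without any of the other 11 mice, with the smallest difference and largest p (0.0310) without Tg2576 vehicle replicate 1, the lowest of these mice. Of the exon bases of Bdnf, 14.4% overlap the antisense gene Gm45346, and the counting did not use strand.

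Sort1, which encodes a sorting receptor that binds proneurotrophins together with p75NTR, was at 856, 948, 692 and 831 CPM in the WT vehicle mice. In the Tg2576 vehicle mice it was at 743, 695, 657 and 607 CPM. As for Bdnf, it was the third WT mouse that lay within the Tg2576 range. The log2 difference was -0.30 (-0.52 to -0.083), with an unadjusted p of 0.00964 and adjusted p = 0.320 by edgeR, and p = 0.0857 by the exact permutation test. It passed in 3 of the 15 fits without 1 mouse, those without WT vehicle replicate 3, Tg2576 vehicle replicate 1 or Tg2576 DHA replicate 1. Over all 15 it ranged from -0.38 to -0.22, with the largest p (0.0503) without WT vehicle replicate 2. Of its exon bases, 4.47% overlap the antisense gene Gm12523.

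Igf1r, the receptor kinase for IGF1, was at 92.5, 94.1, 71.5 and 81.4 CPM in the WT vehicle mice and at 81.2, 69.2, 58.3 and 60.4 CPM in the Tg2576 vehicle mice. The groups touched through the third WT mouse and the first Tg2576 mouse. The log2 difference was -0.34 (-0.58 to -0.089), and with an unadjusted p of 0.0105 (adjusted p = 0.326, edgeR, exact permutation p = 0.0571) it missed the threshold. With an offset for gene length, added after the data were seen, it was -0.15 (unadjusted p of 0.0524). It passed with DESeq2 (-0.33, p of 0.00858), limma-voom (-0.34, 0.00969), no filter on low counts (-0.34, 0.00323) and the replicate block (-0.34, 0.00390). It also passed without Tg2576 vehicle replicate 1 (-0.44, p of 0.00130), WT vehicle replicate 3 (-0.41, 0.00325) or WT DHA replicate 2 (-0.34, 0.00905).

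The remaining receptors gave wider or smaller differences. Ntrk3, which encodes the receptor for neurotrophin-3, was at 260.3, 260.3, 175 and 218 CPM in WT vehicle and between 179 and 198 CPM in Tg2576 vehicle mice (log2 difference -0.28, -0.59 to 0.030, exact permutation p = 0.171). The lowest WT mouse was below all 4 Tg2576 mice. Ntrk2, the receptor of Bdnf, ranged over 484 to 613 CPM and 424 to 641 CPM (-0.087, -0.36 to 0.19, exact permutation p = 0.543). Ngfr, which encodes p75NTR and is abundant in cholinergic neurons that project to the hippocampus, ranged over 2.95 to 4.36 CPM in WT vehicle mice. It ranged over 1.71 to 3.97 CPM in Tg2576 vehicle mice (-0.12, -0.71 to 0.47, exact permutation p = 0.743). The summed markers of cholinergic neurons were at most 1.08 CPM in any mouse. The ligand Ntf3 (neurotrophin-3) differed by -0.15 (-0.61 to 0.31, exact permutation p = 0.686), Vgf by -0.17 (-0.38 to 0.048, p = 0.171) and Igf1 by 0.17 (-0.37 to 0.71, p = 0.686).

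Some cell type markers also passed the threshold in this comparison. Of 6 dentate granule cell markers, a cell type known to express Bdnf, 1 was lower at p under 0.01 (Prox1, log2 difference -0.46, adjusted p = 0.198, edgeR). The summed list ran from 317 to 395 CPM in WT vehicle and from 293 to 342 CPM in Tg2576 vehicle mice, and these overlapped. Of 7 interneuron markers 5 had a negative log2 difference and 2 passed (Gad1 and Gad2), with sums of 811 to 1099 and 733 to 818 CPM. Of 9 plaque-associated microglial markers 8 had a positive log2 difference and 4 passed, with sums of 122 to 131 and 135 to 221 CPM. Of 6 astrocyte markers 1 passed (Gfap, log2 difference 1.02, unadjusted p of 3.63e-05). The list held 3 positive and 3 negative log2 differences, with a median of 0.020. Gfap alone averaged 581 CPM in WT vehicle and 1178 CPM in Tg2576 vehicle mice. The astrocyte sums, which include Gfap, were 2249 to 2481 and 2651 to 3235 CPM and did not overlap. The sums of 4 oligodendrocyte precursor markers, of which 0 passed, did not overlap either (221 to 232 and 175 to 218 CPM). Of 5 endothelial markers Ly6c1 was higher at p under 0.01 (0.58), as was Nxph4 (0.74) of 5 markers of layer 6b and claustrum. The sums of both lists overlapped. No marker of these lists was at 0 reads in either group. Fewer cells of a type and less RNA per cell cannot be told apart in bulk tissue, and the part of cell composition in the Bdnf, Sort1 and Igf1r values was not tested.

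**Figure D2:**
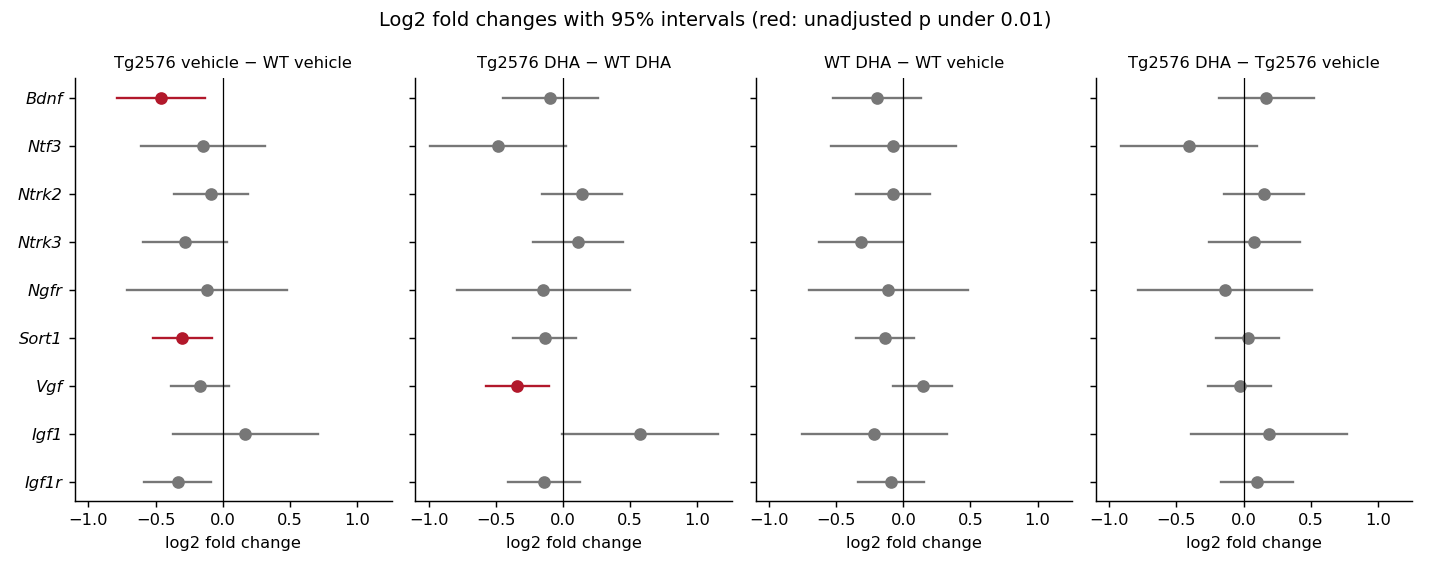
Log2 fold changes (x axis) of the 9 genes (rows) in the 4 comparisons of a pair of groups, with 95% intervals from edgeR. Red marks an unadjusted p under 0.01, reached by Bdnf and Sort1 between genotypes under vehicle and by Vgf between genotypes under DHA. No red interval appears for DHA against vehicle.

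Under DHA, Vgf was the 1 gene of the 9 lower in Tg2576 than in WT mice at p under 0.01, where 1.75% of all genes passed. Vgf and Igf1 were 2 of the 9 genes whose groups did not overlap, against 8.56% of all genes in this comparison of 4 mice with 3. The exact permutation test cannot go below p = 0.0571 at these group sizes, which is the value both genes reached.

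Vgf, whose peptides are released from neurons and enhance synaptic activity, was at 265, 292, 277 and 338 CPM in the WT DHA mice. It was at 263, 218 and 213 CPM in the Tg2576 DHA mice. The gap was narrow, since the lowest WT mouse and the highest Tg2576 mouse differed by less than the SD of either group (32.3 and 27.6 CPM). The log2 difference was -0.34 (-0.57 to -0.10), or 0.790 times the WT level (unadjusted p of 0.00730, adjusted p = 0.560, edgeR). Without Tg2576 DHA replicate 2 or 3 it was -0.30 (unadjusted p of 0.0365) or -0.28 (0.0414). Without WT DHA replicate 4 it was -0.26 (0.0320). It also missed the threshold, with p from 0.0104 to 0.0133, without WT DHA replicate 2, WT vehicle replicate 2 or Tg2576 vehicle replicate 4, and it passed in the other 9 of 15 fits. Some neuronal markers also passed in this comparison. Wfs1, 1 of 5 CA1 markers, was lower in Tg2576 DHA mice (-0.40, unadjusted p of 0.000619), with list sums of 884 to 953 CPM in WT DHA and 753 to 908 CPM in Tg2576 DHA mice. Prkcd, 1 of 5 thalamic markers, was lower (-0.58, 0.00132), with sums of 58.7 to 79.3 and 48.4 to 54.1 CPM. Of 6 dentate markers 0 passed, with sums of 275 to 402 and 255 to 283 CPM, and of 7 interneuron markers 0 passed, with sums of 856 to 956 and 760 to 849 CPM. The part of these cells in the Vgf values was not tested.

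Igf1, a growth factor that neurons and activated microglia both make, was at 5.19, 5.65, 4.14 and 3.41 CPM in the WT DHA mice and at 5.90, 7.74 and 6.89 CPM in the Tg2576 DHA mice. Every Tg2576 mouse was above every WT mouse. The log2 difference was 0.57 (-0.0093 to 1.15), and it did not pass (unadjusted p of 0.0534, adjusted p = 0.732, edgeR). Microglial markers moved in the same mice. Of 9 plaque-associated markers 9 had a positive log2 difference and 6 passed p under 0.01 (edgeR). Their summed levels were 95.2 to 129 CPM in WT DHA and 156 to 216 CPM in Tg2576 DHA mice. Of 6 homeostatic markers 6 had a positive log2 difference and 4 passed, with sums of 229 to 266 and 299 to 398 CPM. None of these markers was at 0 reads in either group, and their part in the Igf1 values was not tested.

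The other 7 genes did not separate under DHA. Ntf3 had the largest remaining difference, with 6.07, 5.97, 7.97 and 9.31 CPM in WT DHA and 6.41, 5.02 and 4.26 CPM in Tg2576 DHA mice (log2 difference -0.48, -0.99 to 0.024, exact permutation p = 0.171). The highest Tg2576 mouse lay within the WT range. Bdnf differed by -0.096 (-0.45 to 0.26, exact permutation p = 0.514), Sort1 by -0.14 (-0.37 to 0.10, p = 0.343) and Igf1r by -0.14 (-0.41 to 0.12, p = 0.343). For Ntrk2 the difference was 0.14 (-0.15 to 0.44), for Ntrk3 0.11 (-0.22 to 0.45) and for Ngfr -0.15 (-0.79 to 0.50). The intervals of Bdnf, Sort1 and Igf1r under DHA therefore still held differences as large as -0.45, -0.37 and -0.41.

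Over both treatments, Vgf had the smallest p of the set. The difference between the means of the Tg2576 and WT groups was -0.25 on the log2 scale (-0.41 to -0.094, unadjusted p of 0.00374, adjusted p = 0.182, edgeR), and it was 1 of 9 genes where 3.85% of all genes passed. Sort1 (-0.22, -0.38 to -0.058, unadjusted p of 0.0106), Igf1r (-0.24, -0.42 to -0.058, p of 0.0126) and Bdnf (-0.28, -0.52 to -0.036, p of 0.0266) lay outside the threshold, as did Ntf3 (-0.32, p of 0.0689). Igf1 was the member with the largest positive difference (0.37, -0.028 to 0.76, adjusted p = 0.477). The Vgf value was lower in Tg2576 mice in every alternative fit, with an unadjusted p between 0.000702 and 0.0120 over 9 other settings and between 0.00121 and 0.0150 when each mouse was left out. It missed the threshold in 4 of 15 such fits, without Tg2576 DHA replicate 2 or 3, WT DHA replicate 4 or WT vehicle replicate 2. Without 1 mouse, Sort1, Igf1r and Bdnf passed in 3, 3 and 1 of 15 fits. At p under 0.01 in this comparison, 3 of 6 dentate genes (Prox1, Plk5 and Dsp) were lower in Tg2576 mice. So were Wfs1 of CA1 (-0.27, unadjusted p of 0.000632) and Prkcd of the thalamus (-0.30, 0.00919). Of the plaque-associated microglial markers 8 of 9 were higher at that threshold, and of the homeostatic microglial markers 3 of 6. All 9 and all 6 had a positive log2 difference. Gfap (1.01) and the endothelial Slco1a4 (0.33) were higher at that threshold as well. The part of these cell types in these values was not tested. Of 40 genes with an adjusted p under 0.05 in this comparison none was among the 9.

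**Figure D3:**
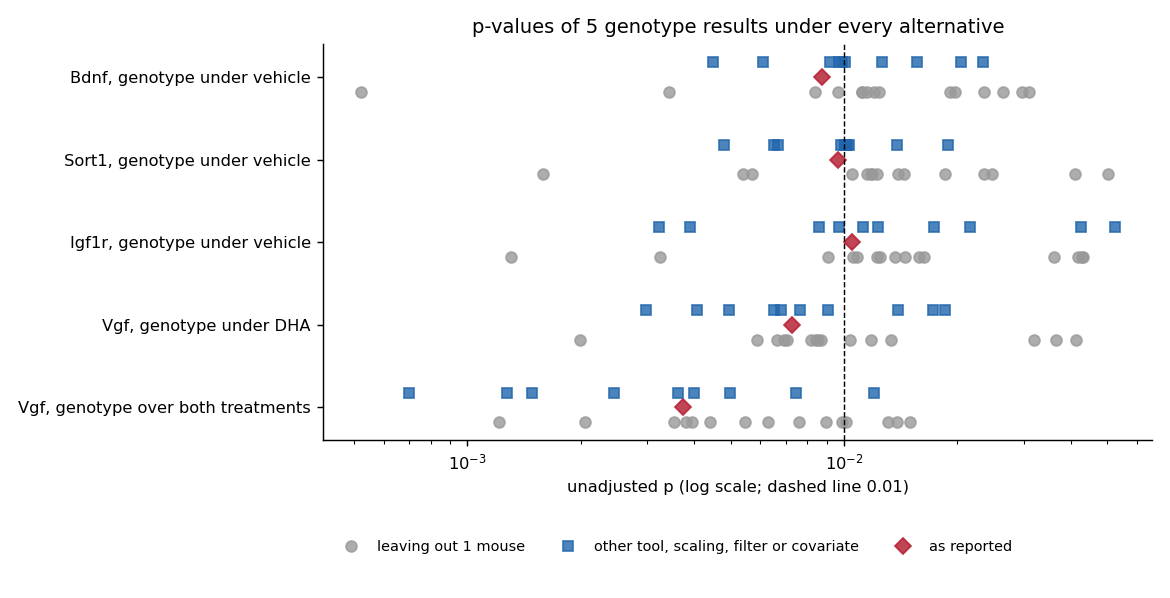
Unadjusted p (x axis, log scale) of 5 genotype differences (rows) as reported (red diamonds), with another tool, scaling, filter or covariate (blue squares) and with each mouse left out (grey circles). The points of Bdnf, Sort1 and Igf1r under vehicle fall on both sides of the dashed line at 0.01, and those of Vgf over both treatments reach no higher than 0.0150.

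DHA itself gave no member with p under 0.01 in WT mice, where 1.38% of all genes passed, or in Tg2576 mice, where 0.353% passed. At an unadjusted p under 0.05 the edgeR counts were 1 and 0 of the 9 genes, against 1157 and 618 of all 19536 genes. DESeq2 and limma-voom also gave 0 of the 9 at p under 0.01. In WT mice 8 of the 9 means were lower with DHA, with a median log2 difference of -0.11, against -0.013 over all genes. With an offset for gene length, Ntrk2 (0.062) and Igf1r (0.033) turned positive. Ntrk3 was at 215, 205, 151 and 164 CPM in the WT DHA mice, against the WT vehicle values above, and its log2 difference was -0.31 (-0.62 to -0.0019, unadjusted p of 0.0488, exact permutation p = 0.114). The groups overlapped, since the lowest WT vehicle mouse (175 CPM) lay between the WT DHA mice. Without WT vehicle replicate 3, that lowest mouse, the difference was -0.42 (unadjusted p of 0.00918). With the length offset it was -0.13 (0.157). Ntrk3 had the most exon bases of the 9 genes (30170), and the cause of this shift was not tested. Some marker sums also separated with DHA in WT mice. For layer 6b and claustrum they were 63.1 to 80.4 CPM on vehicle and 101 to 139 CPM on DHA (3 of 5 markers passed). For CA1 they were 750 to 859 and 884 to 953 CPM (2 of 5 passed). Homeostatic microglial sums were 268 to 299 and 229 to 266 CPM (1 of 6 passed). Oligodendrocyte precursor sums were 221 to 232 and 197 to 215 CPM (0 of 4 passed). The part of these cells in the WT values was not tested.

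Bdnf under DHA was at 41.7, 34.97, 30.2 and 37.6 CPM in WT mice and at 32.2, 31.9 and 37.3 CPM in Tg2576 mice. Its log2 difference from vehicle was -0.20 (-0.52 to 0.13, exact permutation p = 0.229) in WT and 0.17 (-0.19 to 0.52, p = 0.343) in Tg2576 mice. Without 1 mouse the Tg2576 value ran from 0.030 without Tg2576 vehicle replicate 1 to 0.34 without replicate 2 (unadjusted p of 0.0435), and the WT value from -0.28 without WT vehicle replicate 3 to -0.12 without WT DHA replicate 3. In Tg2576 mice all 3 DHA values lay inside the wide vehicle range of 20.8 to 39.8 CPM. Ntf3 differed most with DHA in Tg2576 mice (-0.41, -0.92 to 0.098, exact permutation p = 0.229), and its DHA range of 4.26 to 6.41 CPM overlapped the vehicle range of 5.34 to 8.64 CPM. No member's groups separated with DHA in either genotype, against 5.02% of all genes in WT and 3.21% in Tg2576 mice. Between genotypes under vehicle the count was also 0 of 9, against 5.16% of all genes.

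The remaining differences with DHA were small beside their intervals. In WT mice Vgf differed by 0.14 (-0.073 to 0.36), Sort1 by -0.13 (-0.35 to 0.083), Igf1r by -0.093 (-0.34 to 0.15), Ntrk2 by -0.078 (-0.35 to 0.20), Igf1 by -0.21 (-0.76 to 0.33), Ntf3 by -0.074 (-0.54 to 0.39) and Ngfr by -0.11 (-0.70 to 0.48). In Tg2576 mice Ntrk2 differed by 0.15 (-0.15 to 0.45), Ntrk3 by 0.081 (-0.25 to 0.42), Sort1 by 0.030 (-0.20 to 0.27), Vgf by -0.028 (-0.26 to 0.21), Igf1 by 0.19 (-0.39 to 0.77), Igf1r by 0.099 (-0.17 to 0.37) and Ngfr by -0.14 (-0.78 to 0.51). The intervals were narrow for the abundant genes Sort1 and Vgf and wide for Ngfr and Igf1, which had few reads. Some marker sums separated with DHA in Tg2576 mice too. Dentate sums were 293 to 342 CPM on vehicle and 255 to 283 CPM on DHA (0 of 6 passed). Thalamic sums were 62.5 to 96.6 and 48.4 to 54.1 CPM (1 of 5 passed). The scarce cholinergic markers had 0.516 to 0.894 and 0.232 to 0.414 CPM. The part of these cells in the Tg2576 values was not tested.

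Whether DHA acted differently in the genotypes was tested as an interaction, and 0 of the 9 genes passed, where 0.829% of all genes did. The count was also 0 at an unadjusted p under 0.05, where 1001 of all 19536 genes passed. With DESeq2 or limma-voom it was 0 at p under 0.01. The difference between the DHA effects was 0.36 for Bdnf (-0.12 to 0.84, adjusted p = 0.845, edgeR) and 0.39 for Ntrk3 (-0.063 to 0.85, adjusted p = 0.845). For Igf1 it was 0.40 (-0.39 to 1.20, adjusted p = 0.854), and for Ntf3 -0.34 (-1.02 to 0.35, adjusted p = 0.857). A genotype difference in Bdnf under vehicle beside none past the threshold under DHA is thus not shown to be a difference between treatments. Without Tg2576 DHA replicate 1 the Ntrk3 value was 0.56 (unadjusted p of 0.00940). With the length offset it was 0.086 (0.502), and with the replicate block and length offset together 0.12 (0.346). Averaged over both genotypes, DHA gave 0 of 9 genes past p under 0.01, where 0.870% of all genes passed, and the smallest unadjusted p was 0.156 (Ntf3, -0.24).

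**Figure D4:**
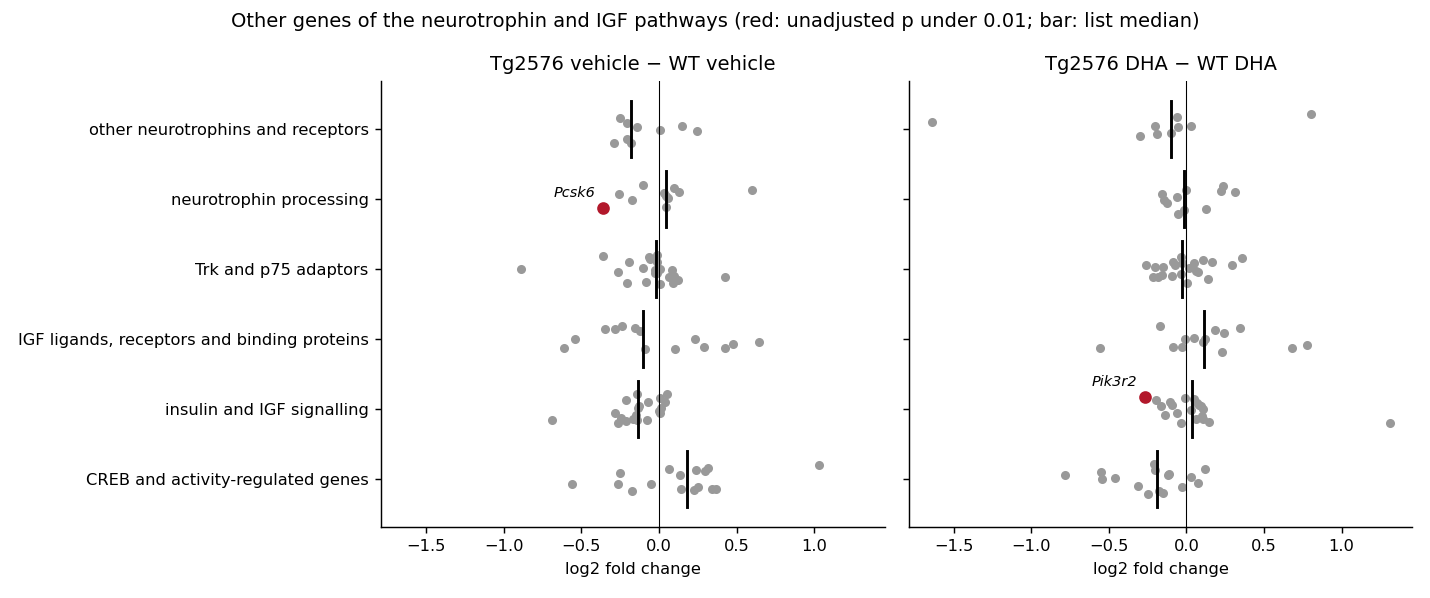
Log2 fold changes (x axis) of 92 further genes of the neurotrophin and IGF pathways in 6 lists (rows), between genotypes under vehicle (left) and under DHA (right). Each point is a gene, black bars are list medians and red marks an unadjusted p under 0.01, reached by Pcsk6 on the left and Pik3r2 on the right.

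The wider pathway was read from 6 lists with 92 tested genes. Under vehicle 1 of them passed (Pcsk6), under DHA 1 (Pik3r2), and over both treatments 3 (Lingo1, Pcsk6 and Igfbp7), against the shares of all genes given above of 3.09%, 1.75% and 3.85%. With DHA in WT mice, with DHA in Tg2576 mice and in the interaction 0 of 92 passed. The median log2 difference of the 92 genes was -0.040 between genotypes under vehicle and -0.032 under DHA.

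Among 9 other neurotrophins, receptors and co-receptors, Lingo1 was lower in Tg2576 mice over both treatments. Lingo1 is a membrane protein that partners p75NTR in the Nogo receptor complex. Its mean level under vehicle was 320.1 ± 20.2 CPM in 4 WT mice and 278 ± 15.9 CPM in 4 Tg2576 mice (SD), and 331 ± 12.8 (n = 4) and 287 ± 19.6 CPM (n = 3) in the DHA groups. Its log2 difference was -0.20 (SE 0.055, unadjusted p of 0.00157, adjusted p = 0.138, edgeR). The ligand Ntf5 (neurotrophin-4, which also binds TrkB) was near the limit of these libraries, at 4 to 25 reads per mouse.

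Of 11 processing genes, Pcsk6, a proprotein convertase, was lower in Tg2576 mice. It was at 37.1, 34.4, 36.7 and 33.9 CPM in WT vehicle and at 26.3, 32.8, 28.4 and 23.3 CPM in Tg2576 vehicle mice. The groups did not overlap, as held for 5.16% of all genes. Pcsk6 was named for its low p, so this adds no support. The log2 difference was -0.36 (SE 0.10, unadjusted p of 0.00269, adjusted p = 0.221, edgeR) and -0.26 over both treatments (adjusted p = 0.179). The other 10 processing genes, among them Furin and the tissue plasminogen activator gene Plat, did not pass in any of these genotype comparisons.

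The 22 adaptors of Trk receptors and p75NTR gave 0 calls in the comparisons of genotype and of DHA. In the IGF family (14 of 15 genes tested), Igfbp7, which encodes an IGF-binding protein, was higher in Tg2576 mice over both treatments (log2 difference 0.39, SE 0.12, unadjusted p of 0.00473, adjusted p = 0.204, edgeR). It was at 13.2 ± 2.66 CPM in WT vehicle and 17.8 ± 2.92 in Tg2576 vehicle mice (SD, n = 4 each). Of 20 insulin and IGF signalling genes, Pik3r2, a regulatory subunit of PI3 kinase, was lower in Tg2576 mice under DHA. It was at 229, 211, 238 and 244 CPM in WT DHA and at 188, 197 and 188 CPM in Tg2576 DHA mice (-0.27, SE 0.089, unadjusted p of 0.00766, adjusted p = 0.560, edgeR). These groups did not overlap, as held for 8.56% of all genes, and Pik3r2 too was named for its low p.

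The 16 CREB and activity-regulated genes gave 0 calls in every comparison, with a smallest unadjusted p of 0.0133 between genotypes under vehicle and 0.0300 under DHA. Their median log2 difference was 0.18 under vehicle, where Bdnf was lower, and -0.19 under DHA, against 0.00030 and -0.0035 over all genes. Under vehicle 11 of the 16 means were higher in Tg2576 mice, and under DHA 3 of 16 were. In the interaction 4 of 16 values were positive and 0 passed, with a smallest unadjusted p of 0.0223 (edgeR). A difference between treatments is thus not shown for these genes.

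The levels of the genes with the most exon bases in this set correlated with a property of each library. The cause of this relation was not tested. For every mouse the slope of log2 CPM, relative to the mean of all mice, on log2 exon length was computed over all tested genes. It ran from -0.091 (Tg2576 DHA replicate 1) to 0.076 (Tg2576 DHA replicate 2) per doubling of length. Within groups it ran from -0.031 to 0.059 in WT vehicle, from -0.046 to 0.034 in WT DHA and from -0.075 to 0.014 in Tg2576 vehicle mice.

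Over the 15 mice the log2 CPM of Ntrk2 (19292 exon bases) had r = 0.88 and rho = 0.86 with this slope (permutation p = 1e-05, the smallest that could be given, and 0.0001). After leaving out the 2 mice farthest from the median slope, r was 0.87. Sort1 (7569 bases) had r = 0.80 and rho = 0.79 (p = 0.00039 and 0.00077, r = 0.62 without the 2 mice), and Ntrk3 (30170 bases) had r = 0.76 and rho = 0.86 (p = 0.00114 and 0.00011, r = 0.78). Igf1r (16791 bases) had r = 0.72 and rho = 0.75 (p = 0.00239 and 0.00193, r = 0.63), and Igf1 (9904 bases) had r = 0.60 and rho = 0.61 (p = 0.0170 and 0.0176, r = 0.72). These are permutation tests of 9 relations, given unadjusted here. They were set against no relation at all, and the share of genes of like length with such an r was not computed. The p-values are therefore not a result particular to these genes.

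Bdnf (6217 bases) had r = 0.30 and rho = 0.44 (permutation p = 0.273 and 0.10, r = 0.21 without the 2 mice), Vgf (2973 bases) had r = -0.24 and rho = -0.21 (p = 0.385 and 0.451, r = -0.32) and Ntf3 (1714 bases) had r = -0.41 and rho = -0.47 (p = 0.126 and 0.0768, r = -0.53). For Ngfr (3446 bases) r was 0.59 and rho 0.20 (permutation p = 0.0193 and 0.480), and r fell to -0.032 without the 2 mice, so that relation rested on them. With group means removed, r was 0.91 for Ntrk2, 0.88 for Sort1, 0.77 for Igf1, 0.75 for Ntrk3 and 0.75 for Igf1r. It was 0.60 for Ngfr, 0.13 for Bdnf, -0.50 for Vgf and -0.58 for Ntf3. With an offset for gene length the vehicle difference was -0.41 for Bdnf (unadjusted p of 0.0156), -0.23 for Sort1 (0.00668) and -0.0030 for Ntrk3 (0.971).

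**Figure D5:**
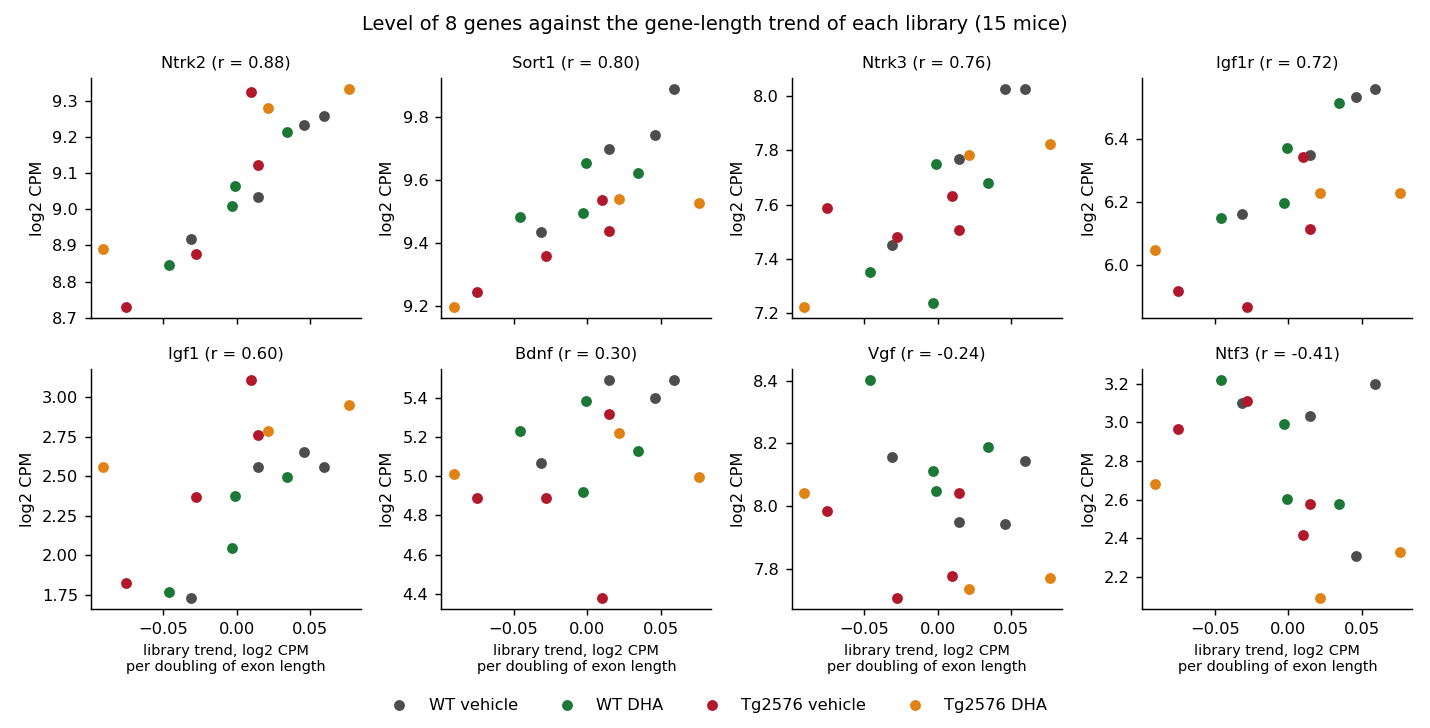
Log2 CPM of 8 of the genes (y axes) against the gene-length slope of each library (x axis, log2 CPM per doubling of exon length) in 15 mice, coloured by group, with Pearson's r above each panel. Ntrk2, Sort1, Ntrk3 and Igf1r climb with the slope (r of 0.72 to 0.88), as does Igf1 (0.60), and Bdnf, Vgf and Ntf3 do not.

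The genes whose levels were most like those of each member over the 15 mice are given as a description, by Pearson's r of log2 CPM. All of them share the libraries and their length slope. Bdnf was most like Cdh9 (r = 0.93), Trpc6 (0.92) and Ppm1h (0.91), and Ntf3 most like Htatsf1 (0.91), Mrfap1 (0.85) and Larp6 (0.85). Ntrk2 was most like Pcm1, March7 and Cdc37l1 (0.97 each), and Ntrk3 most like Gria2 (0.93), an AMPA receptor subunit, Aak1 (0.93) and Jmjd1c (0.92). Sort1 was most like Sipa1l1 (0.96), Kcnj6 (0.96) and Add2 (0.96), and Igf1r most like Kcnj6 (0.95), Agpat3 (0.95) and Nbr1 (0.94). Kcnj6, a potassium channel subunit of neurons, thus appeared for both.

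Vgf was most like Tyro3 (r = 0.90), Rrp7a (0.86) and Slc27a4 (0.86), Igf1 most like Pnpla8 (0.95), Rnf168 (0.93) and Tm9sf3 (0.93), and Ngfr most like Zfp790 (0.86), Slc6a5 (0.85) and C1qtnf3 (0.85). Within the set the highest values were 0.90 between Sort1 and Igf1r and 0.82 between Ntrk2 and Igf1. Ntf3 and Igf1 had r = -0.72. Ligand and receptor had r = 0.062 for Bdnf and Ntrk2, -0.37 for Ntf3 and Ntrk3 and 0.38 for Igf1 and Igf1r.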

How the data were processed

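Hippocampal RNA of 15 mice was sequenced. The authors aligned reads with STAR 2.6.1c and counted them per gene with featureCounts 1.6.0 on GENCODE annotation of GRCm38, and the deposited values are raw counts. Per the study's methods the kit was stranded, whereas the labels name another kit, and counting used no strand. Total counts ranged from 17372864 to 46596489, and precision depends on them and on 3 or 4 mice per group. Symbols were found for 55141 of 55401 genes.

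Counts were analysed in R 4.3.3 with edgeR 4.0.16 (filterByExpr with a minimum count of 10, TMM factors of 0.961 to 1.03, robust quasi-likelihood F test, Benjamini-Hochberg adjustment over 19536 genes), with 1 coefficient per group. The threshold was the study's unadjusted p of 0.01. Log2 CPM used a prior count of 2. Exact permutation tests used scipy 1.17.1, and correlations were tested with 100000 random permutations in numpy 2.4.6. The labels number the samples of a group without naming animals, and p-values measure the spread between these samples. The fit was tested on simulated data. Promoter windows came from RefSeq (GRCm38.p6).

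The members, gene lists and tests were chosen with earlier results of these data known. Named are all 9 members, at most 3 genes per pathway list with the lowest p under 0.01, and the 3 most correlated genes per member. Ntf5, Furin, Plat and the cell type markers were named after their values were seen. Alternatives were DESeq2 1.42.0, limma-voom (limma 3.58.1), library sizes without TMM, no filter, at least 10 counts in every mouse, only the groups compared, no robust option, a replicate block, leaving out each mouse and, added after the data were seen, an offset for gene length (lowess span 0.3).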

Additional observations from a re-analysis of the deposited data

Results flagged for a closer look

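A mouse stood apart from the other 3 of its group in 2 of 27 sets of 4 mice (the 9 genes in 3 groups of 4), where chance gives about 1 in 20. Ngfr in Tg2576 vehicle mice was at 3.97, 3.62, 3.95 and 1.71 CPM, and the gap below the other mice took 0.889 of the range of log2 CPM. Igf1 in WT vehicle mice was at 6.29, 5.90, 3.31 and 5.90 CPM, with a gap of 0.899 of the range. Without Ngfr's low mouse, Tg2576 vehicle replicate 4, the genotype difference of Ngfr under vehicle was 0.11, against -0.12 with it. Without Igf1's low mouse, WT vehicle replicate 3, the Igf1 difference was -0.0050, against 0.17 with it. No member's DHA effect differed between genotypes by the interaction test at p under 0.01.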

How the results depend on the processing

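The counts of members with p under 0.01 turned on small shifts around that threshold. Between genotypes under vehicle the count of 2 was 3 with DESeq2, limma-voom or no filter (Igf1r added to Bdnf and Sort1), 0 without TMM and in a fit of only the groups compared, 1 with at least 10 counts in every mouse, without the robust option, with the replicate block or with the length offset (different genes: Bdnf, Bdnf, Igf1r and Sort1), 0 with the replicate block and length offset together, and 0 to 3 when each mouse was left out. Under DHA the count of 1 was 0 without TMM, in a fit of only the groups compared and with the replicate block, and 0 to 1 without 1 mouse. Over both treatments it was 2 with DESeq2, limma-voom, the length offset or the replicate block with the length offset, 3 with no filter or the replicate block (Sort1, Vgf and Igf1r), 0 without TMM, and 0 to 3 without 1 mouse. DHA in WT mice and the interaction gave 0 to 1 without 1 mouse, through Ntrk3. The cause of these shifts was not tested.

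Of 1260 alternative values of 51 differences, 40 changed sign, all of them of differences that did not pass. With the length offset, and with the replicate block and length offset together, Ntrk2 under vehicle was 0.11 in both, with DHA in WT mice Ntrk2 was 0.062 in both and Igf1r 0.033 and 0.034, and with DHA in Tg2576 mice Ntrk3 was -0.040 and -0.0055 and Sort1 -0.0048 and -0.0094. Vgf with DHA in Tg2576 mice was 0.0031 with the replicate block and 0.010 with both, and the Ntrk2 interaction was -0.0057 with both. When each mouse was left out, signs changed for Ntrk2 (-0.20 to 0.019), Ngfr (-0.22 to 0.11) and Igf1 (-0.050 to 0.37) under vehicle, for Ngfr under DHA (-0.32 to 0.12), for Ntf3 (-0.24 to 0.018) and Ngfr (-0.21 to 0.0024) with DHA in WT mice and for the Ngfr interaction (-0.25 to 0.23). They also changed with DHA in Tg2576 mice for Ntrk3 (-0.020 to 0.26), Ngfr (-0.36 to 0.13), Sort1 (-0.027 to 0.14), Vgf (-0.13 to 0.029) and Igf1 (-0.0035 to 0.41).

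The labels do not say whether equal replicate numbers pair the mice, and these correlations cannot exclude it. Deviations of same-numbered mice had r from -0.24 to 0.21 over 21 pairs, 4 of them over 0.1. Pairs with unlike numbers ran from -0.24 to 0.23, and 5 of 15 mice correlated best with their own number. With 3 or 4 mice per group and a common biological coefficient of variation of 20.1%, the intervals were widest for Ngfr, Igf1 and Ntf3, the genes with the fewest reads.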
